A study of Mus musculus with 59 samples.

Results

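Vehicle-treated mammary tumors of MMTV-PyMT mice were ranked by a mitosis score, and the 6 tumors with the highest score were set against the 6 with the lowest. The score was the mean log2(normalised count + 1) of Mki67, Top2a, Ccnb1, Cdk1 and Plk1, 5 genes that mark dividing cells, so the tumors were chosen by measured values of these libraries; 12 of the 19 vehicle tumors of a series of 59 entered the comparison. All 59 tumors came from mice labelled PyMT (+/-), that is hemizygous for the PyMT transgene, in which the MMTV promoter drives the polyoma middle T oncogene in mammary epithelium (the line B6.FVB-Tg(MMTV-PyVT)634Mul/LellJ). The high-score and low-score tumors had both received vehicle, and the other tumors came from mice given methylparaben (20 tumors) or propylparaben (20 tumors); ages and doses are not given in the labels used here. Total RNA came from a pulverised frozen piece of each tumor, so a lower level can come from fewer cells of a type or from less RNA per cell, and these cannot be told apart. The labels do not say which tumors came from separate mice, so the p-values below measure the spread between these tumors.

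Because the ranking was made from expression in the same libraries, differences between the high-score and low-score vehicle tumors are given as a description, without a test. Whether a gene goes with the score was tested in the 40 paraben tumors, which the ranking did not use, as the change in log2(normalised count + 1) per unit of score with the ester as a covariate (limma, p-values adjusted by Benjamini-Hochberg over 14482 genes). The 5 score genes were left out of that test.

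Cell division runs through ordered programmes. During S phase the genome is copied by the replicative helicase (the Mcm proteins) and DNA polymerases, and in mitosis the kinases Cdk1, Aurka and Plk1 and the spindle proteins separate the chromosomes, after which the ubiquitin ligase co-activated by Cdc20 and served by the conjugating enzyme Ube2c destroys cyclin B. Transcription of the late genes is held by the DREAM and MuvB complexes at a cell cycle genes homology region (CHR) beside CCAAT boxes, and that of the S-phase genes by E2F factors. PyMT tumors begin hormone receptor positive and lose estrogen and progesterone receptor as they progress.

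The 6 high-score tumors had scores of 6.69 to 7.32, with a median of 7.02, and the 6 low-score tumors had scores of 5.41 to 6.13, with a median of 5.999. The 7 tumors between them had scores of 6.22 to 6.69. The cut at the top was narrow: the lowest high-score tumor, vehicle 1, scored 6.694 and the next, vehicle 13, scored 6.687, whereas the low-score boundary had a gap of 0.0909. Z-scores of the same genes, and a score of 25 other mitosis genes, picked the same 6 high and 6 low tumors. The score genes themselves were 1.15 log2 units higher in the high-score tumors at their median, by construction.

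The libraries were shallow, with 1236895 to 1783567 reads on genes in the high-score tumors and 1243309 to 1810878 in the low-score tumors. Reads aligned to several places made up 13.8% to 15.8% of the reads in the high-score tumors and 11.4% to 12.6% in the low-score tumors, without overlap. With this share as a further term of the fit in paraben tumors described below, 1079 genes rose and 1192 fell with the score; in the vehicle differences its part was not tested. Across the 40 paraben tumors this share went with the score (Pearson r = 0.53, permutation p = 0.0005, Spearman rho = 0.50, permutation p = 0.00116, adjusted p = 0.002 and 0.00464 over 4 library measures), but in the methylparaben tumors alone r was -0.09 and in the propylparaben tumors alone 0.80. Without the 2 tumors farthest from the median score r was 0.60. Mitochondrial reads were 3.63% to 7.31% in the high-score tumors and 2.73% to 4.98% in the low-score tumors. Vehicle 1 (high) and vehicle 2 (low) stood apart with 25.1% and 30.6% of reads outside annotated features.

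**Figure D1:**
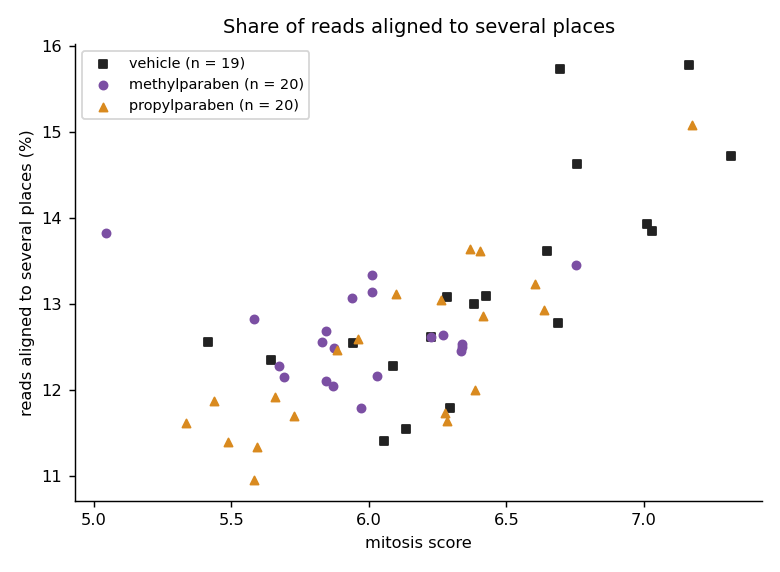
Share of reads aligned to several places (percent, y axis) against the mitosis score (x axis) for each of the 59 libraries, by treatment. The 6 high-score vehicle tumors sit between 13.8% and 15.8%, above the 6 low-score vehicle tumors at 11.4% to 12.6%.

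Of 14482 genes with a mean of at least 1 normalised count, not counting the score genes, 394 were higher in every high-score tumor than in every low-score tumor (2.72% of the genes), and 389 were lower (2.69%). Those shares describe the chosen tumors and are not read as a test. The difference was at least 1 log2 unit for 126 and 224 of these genes. The middle 7 tumors lay between the groups at their mean for 376 of the 394 and 369 of the 389, against 7750 of all 14482 genes. The 394 and 389 were picked for a gap between the outer groups, which itself favours a middle mean between them. Nothing is therefore read from these shares. The intron-level counts of the same libraries pointed the same way for 318 of the 344 higher genes that had introns measured and for 322 of the 335 lower ones. Over all genes 47.6% of intron differences were above 0, with a median of -0.02. The introns were read in the same tumors that picked these genes, so they are no independent check. Over all genes counted the median difference was -0.02.

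In the 40 paraben tumors, 1519 genes rose with the score (10.5% of those tested) and 1594 fell (11%). Of the 394 genes higher in high-score vehicle tumors, 273 rose with the score there and 0 fell, and of the 389 lower genes, 217 fell and 0 rose. These counts of 0 are limma's at an adjusted p of 0.05; at an unadjusted p of 0.05 they were 0 and 1, and edgeR's quasi-likelihood test on the recovered reads called 2 of the 394 as falling and 0 of the 389 as rising. Of the genes that rose in paraben tumors, 18.0% were among the 394, and of the genes that fell 13.6% were among the 389. In methylparaben tumors alone 306 genes rose and 335 fell, and in propylparaben tumors alone 1238 rose and 1418 fell; each has 20 tumors, and the scores had an SD of 0.357 in methylparaben and 0.484 in propylparaben tumors. The counts depended also on the cellular makeup entered in the fit: with 6 composition scores (fibroblast, macrophage, adipocyte, skeletal muscle and both lymphocyte lists) as further terms, 416 rose and 153 fell.

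**Figure D2:**
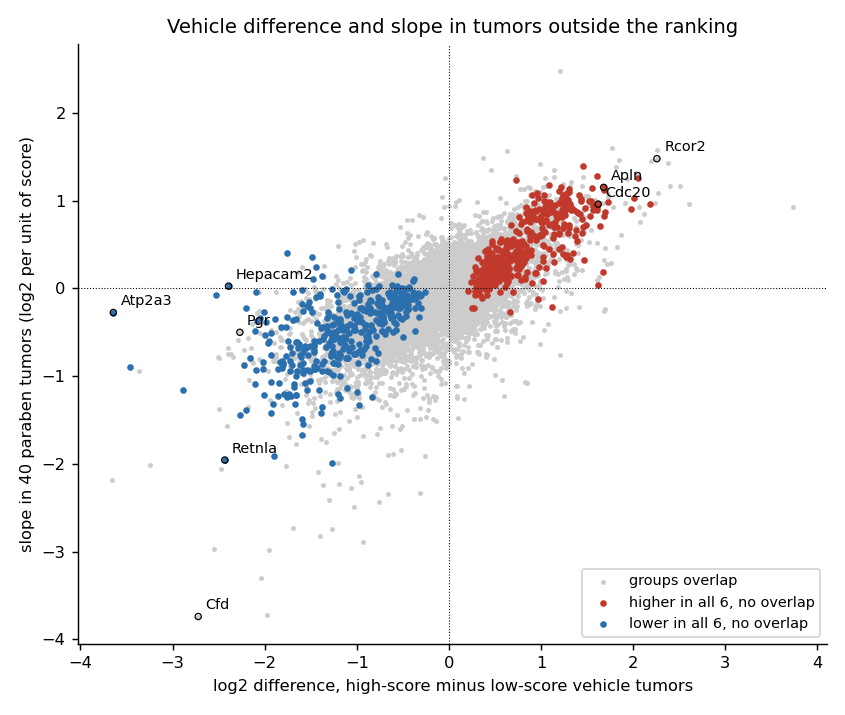
Each point is a gene: log2 difference of high-score minus low-score vehicle tumors (x axis) and slope on the score in the 40 paraben tumors (y axis, log2 per unit of score), coloured where the vehicle groups do not overlap. Of the 394 higher genes 377 have a slope above 0, and of the 389 lower genes 370 have a slope below 0; Atp2a3 and Hepacam2 lie near a slope of 0 despite large vehicle differences.

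Genes of mitosis and the spindle were higher in the high-score tumors. All 25 members of the list, none of which made the score, were higher on average in the high-score tumors, 22 of them without overlap, with a median difference of 1.24 log2 units. All 25 rose with the score in the paraben tumors, with a median slope of 0.95, and this held with each library left out and with the 6 composition scores as terms. Cdc20 (ENSMUSG00000006398, GRCm38 chromosome 4, 118432901 to 118437352), the co-activator of the anaphase-promoting complex, had 36.4 to 53.4 normalised counts (median 44.9) in the high-score tumors and 8.96 to 19.9 (median 13.8) in the low-score tumors. The 2 ranges do not meet, and the middle tumors ran from 19.1 to 43.3. The difference was 1.62 ± 0.17 log2 units (SE, n = 6 each), and the slope in paraben tumors was 0.96 ± 0.11 (SE, limma adjusted p = 1.31e-08). Ube2c, the ubiquitin-conjugating enzyme that works with it, ran from 56.3 to 126 (median 72.9) in high-score and from 19.9 to 27.3 (median 22.2) in low-score tumors, a difference of 1.68 ± 0.18. Exons of Tnnc2 on the other strand overlap those of Ube2c and the strand setting of the counting is not given in the sources used here. Aurka, the mitotic kinase of the spindle poles, had 27.6 to 58.2 (median 38.2) in high-score and 10.1 to 17.9 (median 13.3) in low-score tumors. Cdca3, a trigger of mitotic entry, had 32.2 to 40.1 (median 37.01) in high-score and 8.94 to 11.99 (median 10.3) in low-score tumors, a difference of 1.68 ± 0.08. Bub1, a kinase of the spindle checkpoint, differed by 1.46 ± 0.14. Foxm1, the transcription factor of late cell cycle genes, had 10.7 to 35.4 (median 21.6) in high-score and 8.14 to 14.8 (median 11.4) in low-score tumors, overlapping ranges with a difference of 0.81 ± 0.28, and rose with a slope of 0.93 ± 0.12 (adjusted p = 8.42e-08). Ccna2, the cyclin of S phase and G2, had 74.1 to 113.8 in high-score and 36.2 to 53.5 in low-score tumors, with no tumor of one group within the range of the other. Sgo2a, which protects centromere cohesion, differed by 1.55 ± 0.22 and rose with a slope of 1.00 ± 0.12. Elovl1 and Exosc9 on the other strand overlap exons of Cdc20 and Ccna2 in the same way as Tnnc2 does for Ube2c.

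**Figure D3:**
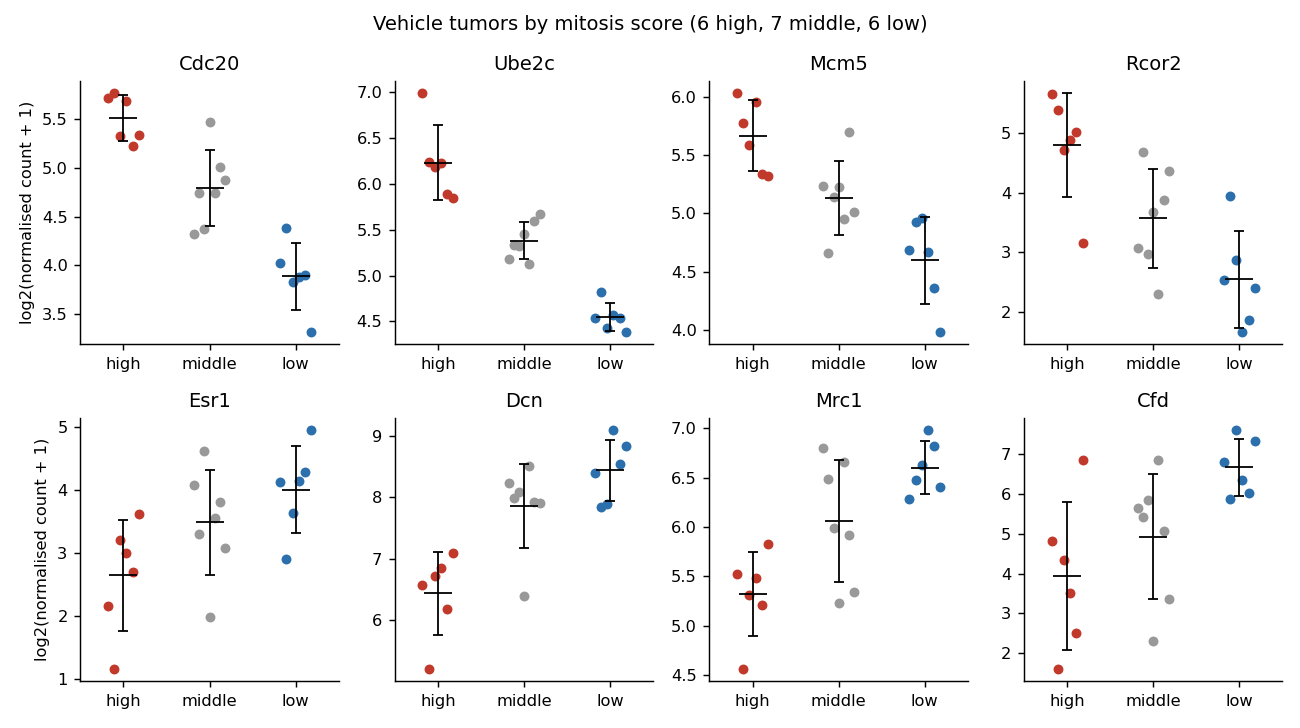
log2(normalised count + 1) of 8 genes in each of the 19 vehicle tumors, high-score at left, middle, then low-score, with the mean and SD of each group. Cdc20, Ube2c and Mcm5 are high without overlap in the high-score tumors, Dcn and Mrc1 low without overlap, and Rcor2, Esr1 and Cfd overlap.

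The promoters of these genes were read from RefSeq windows (250 bases before to 50 after the start, build GRCm38.p6). 4 motifs were searched on both strands after the gene results were known. The letters taken for the CHR were TTTGAA, and no variant of them was searched. The CCAAT box was searched by the letters of its name. The E2F site was searched as TTTCCCGC and also as TTTGGCGC. The E box, the site of Myc and related factors, was taken as the palindrome CACGTG. The mitosis and score genes matched by symbol in 24 of 30 cases and gave 25 windows. CHR stood in 68% of them, against 12.3% of the windows of all genes counted and 17.9% of all windows of the table. CCAAT stood in 84% against 37.5% and 37.4%, E2F in 0% against 2.76% and 1.56%, and the E box in 8% against 9.61% and 7.15%. In the windows of the DNA replication genes the shares were 11.1% for CHR, 77.8% for CCAAT, 44.4% for E2F and 5.56% for the E box. CHR stood in 3 of 8 windows of the fibroblast list (37.5%). It stood in 25.1% of the windows of genes higher without overlap and in 16.9% of those of genes lower without overlap. A match is a run of letters, not a bound site. The window of the score gene Ccnb1 holds no TTTGAA on either strand, which does not show that it lacks a CHR. 5 windows are shown, chosen after the values were seen, with CHR or E2F and CCAAT letters in capitals (a match on the other strand shows as its reverse complement). They lie at chr4:118437294-118437593 (Cdc20), chr2:164769679-164769978 (Ube2c), chr2:172370521-172370820 (Aurka), chr13:100786437-100786736 (Ccnb1) and chr8:75109259-75109558 (Mcm5), on the minus strand for Cdc20, Aurka and Ccnb1 and on the plus strand for Ube2c and Mcm5.
Cdc20: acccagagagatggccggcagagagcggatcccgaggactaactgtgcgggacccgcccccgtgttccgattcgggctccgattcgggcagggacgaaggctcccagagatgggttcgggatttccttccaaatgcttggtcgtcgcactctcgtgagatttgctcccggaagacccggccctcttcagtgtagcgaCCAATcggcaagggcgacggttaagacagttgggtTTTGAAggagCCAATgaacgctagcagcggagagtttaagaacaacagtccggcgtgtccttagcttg
Ube2c: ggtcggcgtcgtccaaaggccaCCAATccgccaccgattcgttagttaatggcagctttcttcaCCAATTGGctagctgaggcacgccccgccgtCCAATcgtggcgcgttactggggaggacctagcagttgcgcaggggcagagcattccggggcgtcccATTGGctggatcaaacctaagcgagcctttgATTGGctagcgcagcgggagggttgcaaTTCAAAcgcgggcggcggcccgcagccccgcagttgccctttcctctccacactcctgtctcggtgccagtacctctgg
Aurka: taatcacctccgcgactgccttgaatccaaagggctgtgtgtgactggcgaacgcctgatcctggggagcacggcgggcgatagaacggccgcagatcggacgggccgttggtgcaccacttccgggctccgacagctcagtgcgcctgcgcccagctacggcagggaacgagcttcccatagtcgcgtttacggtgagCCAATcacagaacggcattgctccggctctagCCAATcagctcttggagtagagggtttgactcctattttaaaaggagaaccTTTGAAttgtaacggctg
Ccnb1: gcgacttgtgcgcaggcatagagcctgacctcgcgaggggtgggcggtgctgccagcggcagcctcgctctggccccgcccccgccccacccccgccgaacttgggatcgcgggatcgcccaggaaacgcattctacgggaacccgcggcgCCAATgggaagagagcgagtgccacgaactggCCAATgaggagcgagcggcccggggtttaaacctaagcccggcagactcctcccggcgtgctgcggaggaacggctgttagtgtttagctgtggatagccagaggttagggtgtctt
Mcm5: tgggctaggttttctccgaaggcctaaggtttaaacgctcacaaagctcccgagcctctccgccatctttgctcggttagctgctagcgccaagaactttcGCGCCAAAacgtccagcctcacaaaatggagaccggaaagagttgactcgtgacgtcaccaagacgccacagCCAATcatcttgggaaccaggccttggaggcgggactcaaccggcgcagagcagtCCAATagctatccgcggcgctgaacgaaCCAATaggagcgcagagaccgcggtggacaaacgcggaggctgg

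Genes of DNA replication followed, at a smaller difference. All 21 members were higher on average in the high-score tumors (median 0.85), 9 of them without overlap, and 19 of the 21 rose with the score in paraben tumors (median slope 0.61). Mcm5, a subunit of the replicative helicase, had 38.8 to 64.3 normalised counts (median 50.4) in high-score and 14.8 to 30.2 (median 24.6) in low-score tumors, a difference of 1.07 ± 0.20, and its slope was 0.93 ± 0.10 (limma adjusted p = 1.63e-09). Mcm10, which helps activate the helicase, differed by 1.28 ± 0.25 and Gins1, a subunit of the active helicase, by 1.10 ± 0.26, both without overlap. Mcm7, a further helicase subunit, differed by 1.04 ± 0.23 with overlapping ranges and rose with a slope of 0.67 ± 0.11. Pole, the leading-strand polymerase subunit, and Gins2 did not pass in paraben tumors. Homologous recombination genes were higher in 12 of 12 (median 0.79), and 10 of 12 passed in paraben tumors, among them Brca1 (slope 1.23 ± 0.15, adjusted p = 2.74e-08). The larger differences of that list were those of Exo1, an exonuclease (1.36 ± 0.26), Rad54l, a DNA translocase (1.28 ± 0.20, without overlap), Blm, the Bloom helicase (1.19 ± 0.28), and Fanci of the Fanconi pathway (1.15 ± 0.26); the first 3 rose with the score, and Fanci had an adjusted p of 0.0997. S-phase chromatin genes, which rebuild nucleosomes and methylation on copied DNA, had a median difference of 0.81, and all 10 passed; Hells, a chromatin remodeller, differed by 1.23 ± 0.22, Lmnb1, which encodes lamin B1, by 1.17 ± 0.24, Asf1b, a histone chaperone, by 0.94 ± 0.15 and Uhrf1, which guides maintenance methylation, by 0.91 ± 0.26. Of 5 histone genes 3 passed (Hist1h1b, Hist1h2ae and Hist1h1e), but Hist1h1e lost its call without propylparaben 1 (adjusted p = 0.0612).

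Among regulators of entry into the cycle, Ccne1, the G1/S cyclin E1, was higher without overlap, at 8.26 to 17.0 (median 14.4) in high-score and 1.58 to 7.45 (median 3.72) in low-score tumors, a difference of 1.55 ± 0.29 with a slope of 1.15 ± 0.23 (adjusted p = 0.000306). Ccne2, cyclin E2, differed by 0.95 ± 0.25 and rose with a slope of 1.07 ± 0.17, and Rbl1, the pocket protein p107, differed by 0.85 ± 0.18 and rose (slope 0.33 ± 0.10, adjusted p = 0.01). Ccnd2, cyclin D2, was the member with the lowest difference (-0.73 ± 0.40) and fell (slope -0.82 ± 0.18, adjusted p = 0.000722). Rbl2, the pocket protein of the DREAM complex, was lower without overlap (-0.46 ± 0.11). The CDK inhibitors Cdkn1a and Cdkn1b differed by -0.05 ± 0.15 and 0.32 ± 0.11 and did not pass in paraben tumors. Cdkn2a, which encodes p16 and p19Arf, differed by 0.63 ± 0.36 with overlap and had a slope of 1.56 ± 0.27 (adjusted p = 4.34e-05). Cdkn2b, which encodes p15 and was named after its values were seen, differed by -0.44 ± 0.26 with overlap. Its slope was -0.45 in vehicle tumors, against 0.57 ± 0.15 in paraben tumors, where it rose. The slope difference had a limma adjusted p of 0.0321, but no gene's slope difference passed without methylparaben 5. In the list 7 of 18 members rose and 3 fell, with falling members reduced to 1 without any 1 of propylparaben 4, 8, 10 and 15 and methylparaben 13, and rising members to 5 without methylparaben 5.

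Growth genes had smaller median differences. Nucleotide synthesis genes had a median difference of 0.53, and 10 of 14 rose with the score. Tk1, thymidine kinase, differed by 0.87 ± 0.24, Dctpp1, a nucleotide pyrophosphatase, by 0.85 ± 0.22 and Ppat, which opens purine synthesis, by 0.67 ± 0.11; all 3 rose in paraben tumors. Genes of the Myc and ribosome biogenesis list, which holds Myc, Mycl and Odc1 beside nucleolar genes, were higher in 11 of 12 (median 0.54), and Npm1, the nucleolar chaperone, ran from 653 to 991 in high-score and from 381 to 588 in low-score tumors, with a slope of 0.54 ± 0.06 (adjusted p = 5.79e-09). Gnl3, nucleostemin, differed by 0.76 ± 0.16 and rose with a slope of 0.34 ± 0.08. Of that list 7 rose, and 3 without propylparaben 1. Its member with the opposite direction was Mycl, a relative of Myc, at 0 to 2.25 in high-score and 2.48 to 17.1 in low-score tumors, which fell with a slope of -0.76 ± 0.26 (adjusted p = 0.0282), a call lost without propylparaben 1 (adjusted p = 0.117). Myc itself differed by 0.89 ± 0.52 and had a slope of 0.37 ± 0.17 (adjusted p = 0.109). Ribosomal proteins were higher in 20 of 20 (median 0.53), and 4 of 20 rose in the paraben tumors by limma, with 0 without propylparaben 1 (1 at an unadjusted p of 0.05) and 2 without methylparaben 5, and Rps6, Rpl10a and Rps16, with vehicle differences of 0.86 ± 0.50, 0.75 ± 0.23 and 0.70 ± 0.28, had slopes of 0.12, 0.11 and 0.04 and did not pass.

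Hormone receptors and their targets were lower. The list had a median difference of -1.28, below 0 for 13 of 14 members, and 5 of 14 fell with the score in paraben tumors (3 without propylparaben 1 or 10, and 8 without propylparaben 15). Esr1, the estrogen receptor, had 1.23 to 11.3 normalised counts (median 6.25) in high-score and 6.46 to 29.99 (median 16.5) in low-score tumors, overlapping ranges with a difference of -1.36 ± 0.45. Its slope was -0.85 ± 0.19 (adjusted p = 0.000716), and with the 6 composition scores -0.59 (adjusted p = 0.19). Pgr, the progesterone receptor, had the largest difference of the list, with 1.93 to 16.3 in high-score and 13.4 to 110 in low-score tumors (-2.27 ± 0.59), and did not pass in paraben tumors (slope -0.50 ± 0.30, adjusted p = 0.242). Areg, an EGF receptor ligand induced by estrogen, was lower without overlap (-1.48 ± 0.33), with a paraben slope of 0.11 ± 0.31. Cited1, a transcriptional coregulator, and Stc2, a secreted glycoprotein, differed by -1.72 ± 0.72 and -2.15 ± 0.62 and fell (adjusted p = 0.011 and 0.0312), but both calls were lost without propylparaben 1 (adjusted p = 0.0747 and 0.274), and that of Stc2 also without propylparaben 10 or 17. Foxa1, the pioneer factor of estrogen receptor binding, ran from 0.411 to 22.7 (median 11.3) in high-score and from 12.9 to 108 (median 26.3) in low-score tumors and had an adjusted p of 0.1. Luminal epithelial genes differed less (median -0.31); Gata3, the luminal transcription factor, ran from 131 to 258 in high-score and from 193 to 588 in low-score tumors, with a slope of -0.28 (adjusted p = 0.0187), which did not pass without propylparaben 1 (adjusted p = 0.0916). In that list 2 of 13 rose (Ehf and Cldn7; 1 without methylparaben 5) and 1 fell; Krt19, a simple keratin, Prom1 and Epcam, an adhesion molecule, differed by -1.01 ± 0.36, -0.62 ± 0.35 and -0.46 ± 0.14 and had slopes of -0.26, 0.00 and -0.03 that did not pass.

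Genes of fibroblasts and macrophages were lower together. The fibroblast list, which marks connective tissue cells, had a median difference of -1.26 with 7 of 13 members lower without overlap, and its summed level was 435 to 1732 in high-score and 1792 to 5465 in low-score tumors. Dcn (ENSMUSG00000019929, chromosome 10, 97479609 to 97518143), the matrix proteoglycan decorin, had 35.7 to 136 normalised counts (median 98.8) in high-score and 229 to 549 (median 355) in low-score tumors, a difference of -2.004 ± 0.344, and fell with a slope of -1.21 ± 0.18 (adjusted p = 2.37e-06). With composition scores as terms, which include this fibroblast list and so Dcn itself, its slope was -0.54 (limma adjusted p = 0.051). In paraben tumors 7 of the 13 fell, and 4 without propylparaben 1; edgeR also called 7. Lum, the proteoglycan lumican, Dpt, dermatopontin, and Mfap5, a microfibril protein, were lower without overlap by -2.02 ± 0.38, -1.93 ± 0.39 and -1.77 ± 0.44, and all 3 fell (adjusted p = 0.00765, 0.00026 and 0.0101); the calls of Lum and Mfap5 were lost without propylparaben 1 (adjusted p = 0.0516 and 0.0785). Macrophage genes had a median of -1.03, with Mrc1, the mannose receptor, at 22.6 to 55.7 in high-score and 77.0 to 126 in low-score tumors, and 8 of 12 fell (4 without propylparaben 1). Csf1r, the receptor for the macrophage growth factor, Itgam, an integrin of myeloid cells, and Cd163, a haemoglobin scavenger receptor, differed by -1.42 ± 0.32, -1.26 ± 0.25 and -1.46 ± 0.42, and all 3 fell. The Itgam call was lost without propylparaben 1 or 15 (adjusted p = 0.0941 and 0.0607). With composition scores as terms, which include the macrophage list, the slopes were -0.17 for Csf1r, 0.083 for Itgam, 0.19 for Cd163 and 0.11 for Mrc1, and none of these passed. The summed level of the macrophage list was 136 to 424 in high-score and 437 to 724 in low-score tumors. Retnla, a product of alternatively activated macrophages, differed by -2.43 ± 0.40 and fell with a slope of -1.96 ± 0.42 (adjusted p = 0.000732), but with composition scores its slope was 0.26. The part of these cell types in the vehicle differences was not tested beyond those terms.

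Adipocyte genes had a median difference of -1.26, and all 13 fell with the score in the paraben tumors, with a median slope of -2.74, in every fit that left out 1 library. Methylparaben 5, the lowest-scoring of the 59 tumors, had the highest list means of the 59 for adipocyte (8.77) and muscle (9.36) genes. It also had the largest share of mitochondrial reads (11.5%). Without methylparaben 5 the median adipocyte slope was -2.27. Cfd, the adipokine adipsin, had 2.05 to 114 (median 14.9) in high-score and 57.1 to 194 (median 95.6) in low-score tumors, ranges that overlap, with vehicle 1 at 114, and its slope was -3.74 ± 0.52 (adjusted p = 1.08e-06). With the composition scores, which include this list, 0 of 13 fell by limma, also at an unadjusted p of 0.05. Adipoq, the hormone adiponectin, Plin1, which coats lipid droplets, and Cidec differed by -2.04 ± 0.65, -1.96 ± 0.68 and -1.70 ± 0.58. The summed adipocyte level was 94.9 to 467 in high-score and 311 to 719 in low-score tumors. Muscle genes differed by -1.88 at their median but rested on single tumors: vehicle 19 in the high group and vehicles 2, 6 and 12 in the low group hold most of Myh4, and 0 of 11 fell by limma, also at an unadjusted p of 0.05, while edgeR called 8. Without methylparaben 5 the median muscle slope by limma was 0.08, with 7 of 11 members above 0. edgeR was not run without that tumor. Ighm, the heavy chain of IgM, differed by -1.64 ± 0.67 and was the member of the B and plasma cell list that fell by limma (1 of 4 tested, median difference -0.40; 1 to 2 without 1 library; edgeR called 4); Cd79a and Mzb1 were at 0 in all 12 tumors. T cell genes were below 0 in 7 of 7 (median -0.84) and 0 fell by limma and by edgeR (3 and 4 at an unadjusted p of 0.05), with Cd3e, Cd3g, Cd4, Cd8b1, Ncr1 and Prf1 below the mean of 1; endothelial genes had a median of -0.15, and 4 fell by limma, with 7 without methylparaben 1, 2 without propylparaben 10 and 0 without methylparaben 5 (3 at an unadjusted p of 0.05). Basal and mesenchymal genes had medians of -1.18 and -0.91, and 6 of 9 basal and 8 of 11 mesenchymal genes fell, with 2 and 3 of them without propylparaben 1. The basal list did not move as a whole. Its keratins did not pass in paraben tumors. In vehicle tumors 2 of its 9 members were above 0, the highest at 1.05, and no member separated the groups. Myh11, smooth muscle myosin, Cnn1, calponin, and Oxtr, the oxytocin receptor, which contractile basal cells express, differed by -1.76 ± 0.62, -1.51 ± 0.67 and -1.73 ± 0.54, all with overlap, and fell (adjusted p = 0.00198, 0.0106 and 0.0363); edgeR called 2 of the 9. The call of Cnn1 was lost without propylparaben 1 (adjusted p = 0.0865), and that of Oxtr without any 1 of 9 libraries (adjusted p = 0.0504 to 0.119). Zeb2, a repressor of the epithelial state, differed by -1.42 ± 0.40, and its slope was -1.04 ± 0.18 (adjusted p = 4.61e-05).

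**Figure D4:**
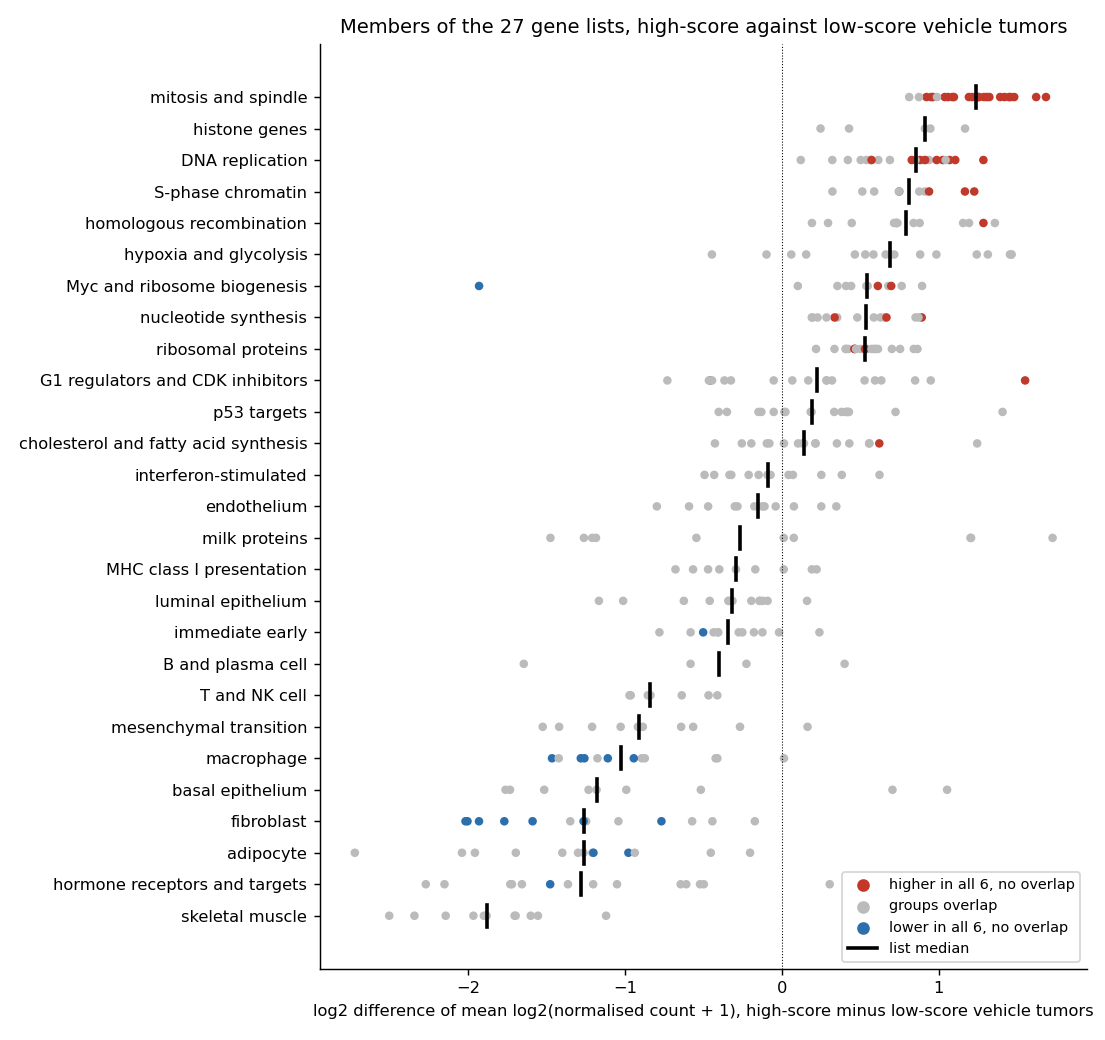
Members of the 27 gene lists as points at their log2 difference, high-score minus low-score vehicle tumors (x axis), coloured where the groups do not overlap, with the list median as a bar. The mitosis list has the highest median at 1.24 and skeletal muscle the lowest at -1.88.

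**Figure D5:**
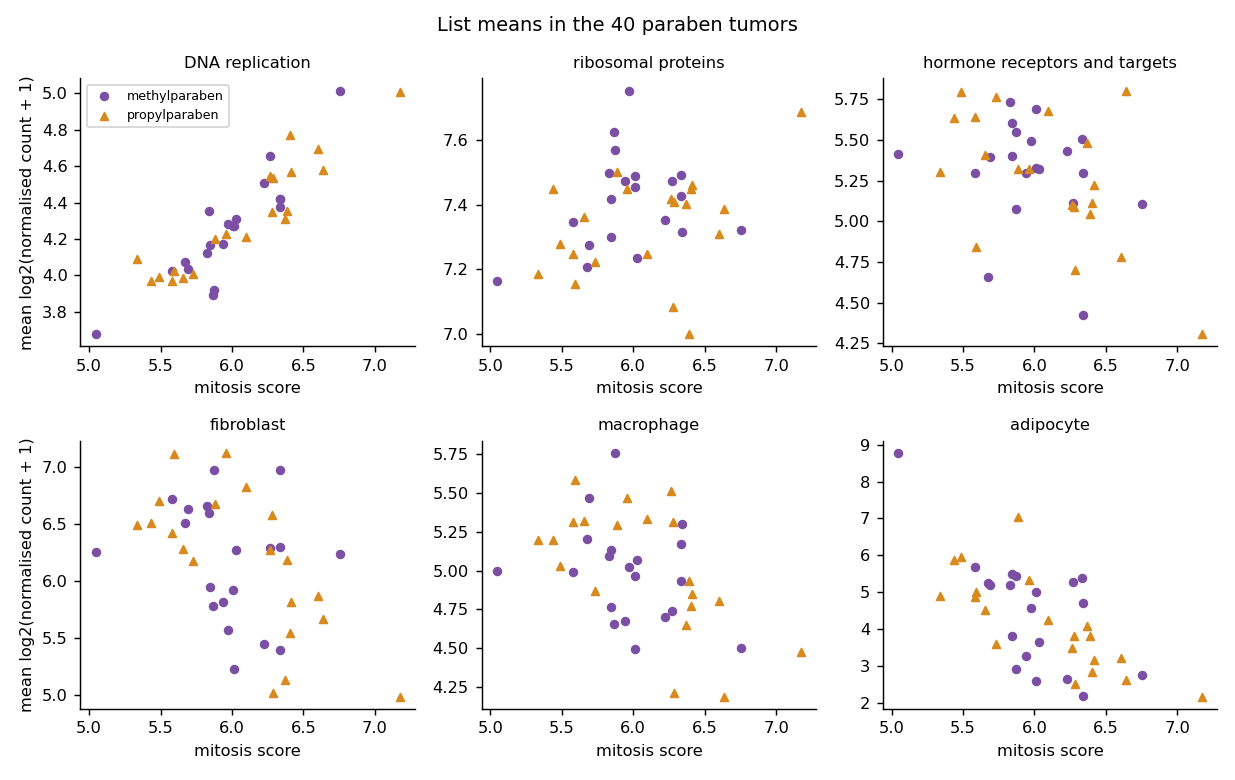
Mean log2(normalised count + 1) of 6 lists (y axis) against the mitosis score (x axis) in the 40 paraben tumors, by ester. The replication list rises and the adipocyte list falls. The tumor at a score of 5.05 is methylparaben 5, which has the highest adipocyte mean (8.77), and the one at 7.17 is propylparaben 1.

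Hypoxia genes were higher at their median (0.69), without a gene that separated the groups. Egln3, the oxygen-sensing prolyl hydroxylase induced by hypoxia, had 47.9 to 239.5 (median 175) in high-score and 39.4 to 99.8 in low-score tumors (1.46 ± 0.40), and rose with a slope of 0.89 ± 0.16 (adjusted p = 4.32e-05). Vegfa differed by 1.46 ± 0.49 and rose in paraben tumors (adjusted p = 0.0347; 0.165 without propylparaben 1). The Vegfa call was lost without any 1 of 7 libraries. Of the 17 members 4 rose, with 7 without methylparaben 5; Adm, adrenomedullin, and Ankrd37 differed by 1.45 ± 0.37 and 1.31 ± 0.38 and had adjusted p of 0.0524 and 0.505. Cholesterol genes differed by 0.14, and 5 of 17 rose, with 3 without methylparaben 4, propylparaben 14 or propylparaben 17. Fasn, fatty acid synthase, fell (adjusted p = 0.0318), and no member fell by limma without methylparaben 5 (0 at an unadjusted p of 0.05) or without propylparaben 10 (2 at an unadjusted p of 0.05), while Insig1, which retains the sterol sensor, differed by 1.24 ± 0.36 with a slope of 0.10 (adjusted p = 0.671). MHC class I genes were lower at their median (-0.29), and 5 of 9 fell, H2-D1 with a slope of -0.51 (adjusted p = 0.000426). H2-K1 and B2m, the class I heavy and light chains, fell with it (adjusted p = 0.00599 and 0.00301). Interferon-stimulated genes differed by -0.09 and 1 of 13 fell (Oasl2), with 0 to 3 without 1 library (7 at an unadjusted p of 0.05 in all 40). Of 17 p53 target genes (median 0.19) 3 rose and 2 fell, with 1 and 1 without propylparaben 1 (1 fell also without methylparaben 4 or 5 or propylparaben 4); Gdf15, a stress cytokine, differed by 1.41 ± 0.39 and had a slope of 0.40 ± 0.26 (adjusted p = 0.282). Immediate early genes, which respond within minutes to stimuli and tissue handling, had a median of -0.34, and Jun, Dusp1 and Zfp36 fell, with 1 member without propylparaben 1 (Jun then had an adjusted p of 0.0535); Dusp1, a MAP kinase phosphatase, had 15.8 to 22.7 in high-score and 24.3 to 55.2 in low-score tumors. Milk protein genes varied in both directions, from -1.47 for Lalba to 1.73 for Csn2, and 1 of 10 rose and 1 fell, with 1 to 2 in each direction without 1 library.

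Some large vehicle differences did not pass the test in the paraben tumors, which does not show that they are absent there. Atp2a3 (ENSMUSG00000020788, chromosome 11, 72961169 to 72993044), an endoplasmic reticulum calcium pump, had 1.23 to 10.7 normalised counts (median 6.19) in high-score and 23.3 to 146 (median 91.4) in low-score tumors, the largest difference among the named genes at -3.64 ± 0.53. Its slope in paraben tumors was -0.28 ± 0.48 (adjusted p = 0.733). Scgb2b26, an androgen-binding secretoglobin, had 0 to 5.25 in high-score and 16.9 to 46.9 in low-score tumors, and did not pass either (adjusted p = 0.345). Rcor2, a CoREST corepressor subunit, was named whatever its value and had 7.88 to 49.3 in high-score and 2.14 to 14.4 in low-score tumors (2.26 ± 0.49). It rose in the paraben tumors (slope 1.48 ± 0.23, adjusted p = 1.02e-05), though not in methylparaben tumors alone (adjusted p = 0.0874). Of the genes outside the lists, those named here for their size in the higher direction rose with the score in paraben tumors. That does not hold of every such gene. Slc16a1, a lactate transporter named after its values were seen, was higher without overlap by 1.46 ± 0.27. Its slope was 1.29 in vehicle tumors, against 0.33 ± 0.22 in paraben tumors, which did not pass (limma adjusted p = 0.297). The slope difference had a limma adjusted p of 0.0407, against the mean of slopes fitted in each ester. No gene's slope difference passed by limma without methylparaben 5. Slc16a1 was named with its vehicle gap already seen, which favours a steep vehicle slope, so this p is no independent support. Apln, the secreted ligand apelin, had 41.6 to 71.0 (median 61.1) in high-score and 10.5 to 38.2 (median 13.6) in low-score tumors (1.68 ± 0.32), with a slope of 1.15 ± 0.23 (adjusted p = 0.000217). Dmrta2, a transcription factor, had 43.3 to 95.7 in high-score and 11.6 to 40.9 in low-score tumors (slope 1.28 ± 0.21, adjusted p = 1.16e-05). Fabp5, a fatty acid carrier, had 44.4 to 156 in high-score and 12.1 to 41.7 in low-score tumors (slope 0.90 ± 0.15). Arnt2, a basic helix-loop-helix factor, Mex3b, an RNA-binding protein, and Ncmap differed by 1.57 ± 0.31, 1.57 ± 0.41 and 1.52 ± 0.29, and their slopes of 0.93, 0.89 and 1.00 passed.

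Among the genes lower by the widest margins, the paraben tumors gave both outcomes. Crispld1 (-2.27 ± 0.53), Adgrd1, an adhesion receptor (-2.10 ± 0.41), Thbs4, the matrix protein thrombospondin 4 (-2.22 ± 0.51), and Mmp19, a matrix metalloproteinase (-2.16 ± 0.31), fell with the score (adjusted p = 0.000318, 0.00425, 0.0363 and 0.0254). The Thbs4 call was lost without any 1 of 4 libraries (adjusted p = 0.161 without propylparaben 1, and 0.0539 to 0.0607 without propylparaben 8 or 14 or methylparaben 20), and with composition scores its slope was 0.068; the Mmp19 call was lost without methylparaben 5 (adjusted p = 0.0675). Scgb2b27, a secretoglobin beside Scgb2b26 in its family, had 41.2 to 247 (median 94.7) in high-score and 479 to 1031 (median 821) in low-score tumors, groups far apart, with an adjusted p of 0.0536 in paraben tumors; reads shared between these near copies may be split by the counting. Cdh19, a cadherin, and Spink5, a protease inhibitor, differed by -2.08 ± 0.42 and -2.06 ± 0.40 and did not pass (adjusted p = 0.171 and 0.501).

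Vehicle slopes use all 19 vehicle tumors, the ranked ones among them. Hepacam2, Tspan8 and Csn3 were named for the size of their differences between those ranked tumors. That choice favours a steep vehicle slope, so their slope differences are no independent support for a difference between vehicle and paraben tumors. The difference between the vehicle slope and the mean paraben slope passed for 43 genes (0.297% of those tested), with the vehicle slope the lower for 31. That mean is taken over slopes fitted in each ester, whereas a printed paraben slope is common to both esters. A difference therefore need not equal the printed slopes subtracted. Hepacam2 (ENSMUSG00000044156, chromosome 6, 3457096 to 3498298) had 2.47 to 22.0 in high-score and 30.2 to 77.4 in low-score tumors, with slopes of -2.27 in vehicle tumors and 0.03 in paraben tumors (difference -2.29 ± 0.50, limma adjusted p = 0.0245). Tspan8, a tetraspanin of the cell surface, had 6.16 to 51.8 in high-score and 66.6 to 159 in low-score tumors, with a difference of -1.99 ± 0.39. Csn3, kappa casein, had 492 to 2843 in high-score and 1999 to 3177 in low-score tumors, with a slope difference of -1.08. The limma count was 0 without methylparaben 5 (1146 at an unadjusted p of 0.05, against 1860 with it), 191 without methylparaben 4, and 4 with no filter on low values.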

How the data were processed

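Total RNA of 59 mammary tumors was sequenced. Per the submitters' processing notes the reference was GRCm38 and the tools were STAR 2.6.1d (alignment), HTSeq 0.10.0 (counting) and bcl2fastq 2.20.0.422. No annotation, strand setting or normalisation tool is named in these notes or labels. The deposited tables hold 1 normalised signal value per gene and library, for genes and for introns. In the gene table the authors' values were whole reads divided by a factor per library: all gene values (100%) came out as whole reads to within 1e-06. How the intron values were made is not stated, and whole reads were not recovered for all intron columns. HTSeq's 5 summary lines stayed out of all tests.

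Genes with a mean of at least 1 over the 59 libraries were kept (14482 without the score genes), and log2(value + 1) was used, which understates the change of low genes. Slopes were fitted with limma 3.58.1 (trend) in R 4.3.3 in 40 paraben tumors, and the slope difference over all 59. edgeR 4.0.16 on the recovered reads was an alternative. Counts were simulated for 14482 genes, with the changed genes drawn only from those with a mean of at least 10. The slope fit recovered 96% of genes with a true slope of 1 and 68% at 0.5. The slope-difference fit recovered 79% and 27%. Recovery of genes with a lower mean was not simulated. Groups came from the treatment label; replicate numbers follow accession order. No 2 vehicle libraries agreed within sampling noise (lowest chi-square per degree of freedom 3.03 over 9623 genes).

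The tumors, the 27 gene lists and the tests were chosen with earlier results of these data known. Named genes were the 5 score genes, 9 fixed genes, the 12 with the largest non-overlapping difference in each direction (mean of at least 10), and up to 4 per list by size; a few of these are not reported here. Areg, Brca1, Rbl2, Cdkn2a, Pole, Gins2, Ehf, Cldn7, Oasl2, Zfp36, Fasn, Slc16a1 and Cdkn2b were named after their values were seen, as were the motif letters and the 5 printed promoters. Positions and overlaps on the other strand came from GENCODE M21; 107 of 377 genes looked up have exons overlapping a gene on the other strand, whose reads cannot be told apart without the strand setting.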

Additional observations from a re-analysis of the deposited data

Results flagged for a closer look

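In groups of 6 tumors, a tumor whose gap to the nearest of the others exceeded 0.625 of the group's range was singled out (Dixon's ratio), over the named genes, the list means, the score and 4 library measures. Of 340 groups, 29 held such a tumor, where chance gives about 5 in 100. Values are log2(normalised count + 1) (for lists, its mean over the members) unless in percent, with the range of the other 5 tumors in brackets. Vehicle 10 stood apart in the high-score tumors with Ube2c at 6.99 (5.84 to 6.24). Vehicle 1 stood apart in the high-score tumors with Sgo2a at 5.74 (6.51 to 6.71), Lalba at 8.15 (4.96 to 5.95), Csn1s2a at 3.62 (0.00 to 0.89), Egln3 at 5.61 (7.19 to 7.91), reads outside features at 25.1% (14.9% to 18.7%) and mitochondrial reads at 7.31% (3.63% to 4.62%). Vehicle 8 stood apart in the high-score tumors with Foxa1 at 0.50 (3.24 to 4.57), Zeb2 at 2.57 (4.24 to 5.19), Fosb at 2.66 (0.91 to 1.43) and mesenchymal transition list score at 3.24 (4.36 to 4.82). Vehicle 19 stood apart in the high-score tumors with Myh4 at 3.86 (0.00 to 1.40), Tnnc2 at 3.47 (0.00 to 1.16), Ckm at 3.08 (0.00 to 0.51) and skeletal muscle list score at 3.13 (0.46 to 0.63). Vehicle 14 stood apart in the high-score tumors with Ms4a1 at 0.51 (0.00 to 0.00). Vehicle 2 stood apart in the low-score tumors with Myh11 at 3.51 (5.54 to 5.87), Oxtr at 3.31 (5.27 to 5.76), Vegfa at 6.85 (4.16 to 5.02), basal epithelium list score at 4.47 (5.62 to 6.09) and hypoxia and glycolysis list score at 5.66 (4.68 to 5.003). Vehicle 11 stood apart in the low-score tumors with Tspan8 at 7.32 (6.08 to 6.49), Lmnb1 at 4.94 (5.601 to 5.98) and nucleotide synthesis list score at 4.45 (4.78 to 4.97). Vehicle 6 stood apart in the low-score tumors with Hist1h1e at 5.42 (4.56 to 4.87). Vehicle 12 stood apart in the low-score tumors with Lalba at 5.77 (7.20 to 7.996). Vehicle 5 stood apart in the low-score tumors with Fosb at 4.69 (1.53 to 2.23), Dusp1 at 5.81 (4.66 to 4.86) and immediate early list score at 6.15 (4.85 to 5.21). Of the named genes, 5 had a slope on the score that differed between vehicle and paraben tumors by limma, given as vehicle minus paraben in log2 per unit of score: Tspan8 (-1.99), Hepacam2 (-2.29), Csn3 (-1.08), Cdkn2b (-1.08) and Slc16a1 (1.19). None of these calls was made without methylparaben 5. All 5 genes were named by the size of their vehicle difference or with their values seen, so the calls are no independent support.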

How the results depend on the processing

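No paired analysis was possible because the replicate numbers follow accession order and pair no tumors. The gene counts depended on how many were compared: 836 genes were higher and 873 lower with 5 a side, 1551 and 1751 with 4 a side, and 56 and 66 with 9 a side. Without vehicle 1 and 2, 1110 were higher and 1277 lower; leaving out 1 tumor gave 435 to 734 higher and 420 to 893 lower, the lowest without vehicle 5 and the highest without vehicle 2. Fewer tumors overlap less by construction. In the paraben tumors the rising genes numbered 416 and the falling 153 with 6 composition scores as terms, 306 and 335 in methylparaben tumors alone, and 1034 fell with a mean of at least 10 (fewer genes tested); leaving out 1 library gave 1117 to 1600 rising and 1031 to 1671 falling, the low ends without propylparaben 1. Genes whose slope differed numbered 4 with no filter, 78 with quantile normalisation, and 0 to 191 without 1 library. With composition terms the slope turned to 0.26 for Retnla and 0.068 for Thbs4. It also turned to 0.028 for Mfap5, 0.70 for Plin1, 0.25 for Cidec, 0.19 for Cd163, 0.11 for Mrc1 and 0.083 for Itgam. Mfap5, Plin1, Cidec, Cd163, Mrc1 and Itgam are members of the lists behind the composition scores, so part of their change is built in. In methylparaben tumors alone the slope was 0.051 for S100a4 and -0.22 for Vegfa. Elovl6 ranged from -0.12 to 0.30 without 1 library, the highest without methylparaben 5. The cause was not tested. Sign changes of slopes that passed in neither setting were not counted as reversals, a choice made after seeing the values; they include Prom1, Isg15, Hepacam2, Atp2a3 and Fosb. Of 81 named genes that passed, 75 passed with edgeR, 64 with the share of reads aligned to several places as a term, 34 in methylparaben tumors alone and 29 with composition terms. Some of the 81 are themselves members of the composition lists, which lowers that last count by construction. Under the scaling alternatives the high and low tumors were held fixed and only the values were changed. Whether the ranking itself would move with the scaling was not tested. All list medians kept their sign except that of interferon-stimulated genes, positive under 3 alternatives that leave out or replace vehicle 1. The alternatives on vehicle 1 and 2, on reads aligned to several places and on libraries over 25% outside features were added after seeing the data.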
